A study of Mus musculus with 8 samples.

Results

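The axon guidance ligands and receptors are the slits, netrins, semaphorins and ephrins together with their Robo, Unc5, neuropilin, plexin and Eph receptors. Probe sets were taken by gene symbol, which gave 57 of the 12393 genes named on the array, by 98 of its 22626 probe sets that are not controls. The family was selected on measured values, since the high signal of Slit3 in knockout cells was known when it was chosen, so differences between knockout and wild type are given below as descriptions with no test. Unc50 fits the symbol pattern with 3 probe sets but is a Golgi protein and not a netrin receptor, and it is included in the counts below unless they say otherwise.

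RNA came from mouse embryonic fibroblasts, connective tissue cells of embryonic day 11 that were carried in culture beyond crisis, the stage at which most primary cells stop dividing. The Med23-/- knockout (KO) cells lack the MED23 subunit of Mediator, a bridge between transcription factors and RNA polymerase II, and the wild-type (WT) cells carry the intact gene. The 4 groups of 2 arrays were KO cells given 20% fetal bovine serum (FBS) for 30 min, KO cells kept starved, WT cells given the same serum and WT cells kept starved, all after 16 h in 0.5% FBS. The study asked which genes respond differently to serum without MED23, and used a change of over 2-fold as its rule. The labels give no number of independent lines per genotype, so genotype and line cannot be told apart, and they do not say whether the arrays of a group came from separate cultures, so p-values measure the spread between these arrays only.

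The Med23 probe set read 28 and 132.5 in starved KO cells, against 4901 and 5410 in starved WT cells, and 34.61 and 36.91 in stimulated KO cells, against 3595 and 3577 in stimulated WT cells. Correlations between the arrays of a group were 0.976 to 0.984. Of 12 fibroblast markers, 9 were at or above the array's 40th percentile on all 8 arrays, Thy1 was below it on every array, and Pdgfra and Lum were below it on all WT arrays. Pdgfra, the PDGF alpha receptor, read 6040 to 15780 in KO cells and 13.25 to 129.2 in WT cells. The summed fibroblast signal was 306300 to 409700 in KO cells and 187400 to 210700 in WT cells. Col1a2 read 62380 to 91080 on the KO arrays, but 581.4 and 742.9 on the first and 8871 and 9443 on the second WT arrays, so the WT arrays were not alike in all fibroblast genes. Dcn, a proteoglycan of the matrix, went the other way, with log2 differences of -1.13 in starved and -0.86 in stimulated KO against WT cells. Of the 10 neuron, 5 Schwann cell and neural crest, 8 endothelial, 7 epithelial and 7 macrophage markers on the array, only the macrophage gene Csf1r was at or above that percentile on all 8 arrays. The neural crest gene Sox10 was above it on 7 arrays, and read 482 to 787.9 over all 8. The summed neuron signal was 2746 to 3354 in KO cells and 3157 to 3823 in WT cells. Of the neuron genes, Map2 was above the percentile on the 4 KO arrays alone, and Tubb3 and Stmn2 on the 4 WT arrays alone. The summed epithelial signal was 649.4 to 1561 in KO cells and 1818 to 2181 in WT cells, without overlap. Of the epithelial genes, Krt19 was above the percentile on the 4 WT arrays alone. Krt8 was higher in starved KO cells without overlap (log2 difference 0.33). In stimulated cells its arrays overlapped (-0.61), with 102.9 and 765.1 in KO cells and 434.5 and 462.2 in WT cells. Cldn4 was lower in stimulated KO cells without overlap (-0.75). In starved cells its arrays overlapped (0.71), with 286.2 and 442.3 in KO cells and 305.5 and 145.7 in WT cells. The part of the cell makeup in the differences below was not tested. In RNA from whole cultures, fewer cells of a kind and less RNA per cell cannot be told apart.

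Guidance cues steer growing axons and migrating cells. Slits repel through Robo receptors, and netrins attract or repel through Dcc, neogenin and the Unc5 receptors. Semaphorins signal through plexins, with neuropilins as partners for most of class 3, and ephrins are bound to the cell surface and signal to and from Eph receptors on neighbouring cells, which drives cell sorting and boundary formation. Fibroblasts and other mesenchymal cells use many of the same molecules for contact repulsion and migration.

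Of the 57 genes, 42 had a probe set at or above the 40th percentile on at least 2 arrays, and 15 had none. The 40th percentile of signal lay between 412.6 and 497.4 on the 8 arrays, and 49 to 57 of the 98 probe sets (50% to 58.2%) reached it on each of them. On all 8 arrays 39 probe sets (39.8%) reached it, against 51.3% of all probe sets. On at least 2 arrays, the condition for a test, 64 (65.3%) reached it, against 66.1% of all. A further 2 probe sets reached it on 1 array and 32 on none, so 34 probe sets were not tested. No detection calls were given in the sources used here, so a probe set below the 40th percentile is dim, not absent.

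The bright members came from most families. All 6 ephrin-A and all 8 ephrin-B probe sets were tested, as were the 3 Ephb probe sets, all 4 neuropilin and all 4 plexin-A probe sets and 11 of 12 for the class 3 semaphorins, the secreted ones. Of the 16 Epha probe sets 5 were tested. None of the 4 Plxnc1 and none of the 3 class 5 semaphorin probe sets were, nor any for Slit1, Ntn4, Robo4, Epha1, Epha3, Epha5, Epha6, Epha8, Plxnb3, Sema4a, Sema6a or Sema6b. Just inside the limit, on 2 arrays, lay Efnb3 (312.7 to 663.9), Sema3b (1416644_a_at, 46.15 to 622.1) and Sema4b (1455678_at, 93.85 to 809.4). Just outside, on 1 array, lay Sema4d (1420823_at, 75.61 to 508.6) and Sema6c (1423454_a_at, 149.8 to 753.9). Of the dim genes, Ntn4 read 21.69 to 46.82 in KO cells and 256.3 to 417.1 in WT cells. The ephrin receptor Epha3 (1425575_at) read 3.03 to 24.38 in KO cells and 211.7 to 274.2 in WT cells. Both were below the 40th percentile on every array, so no fold is given.

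**Figure D1:**
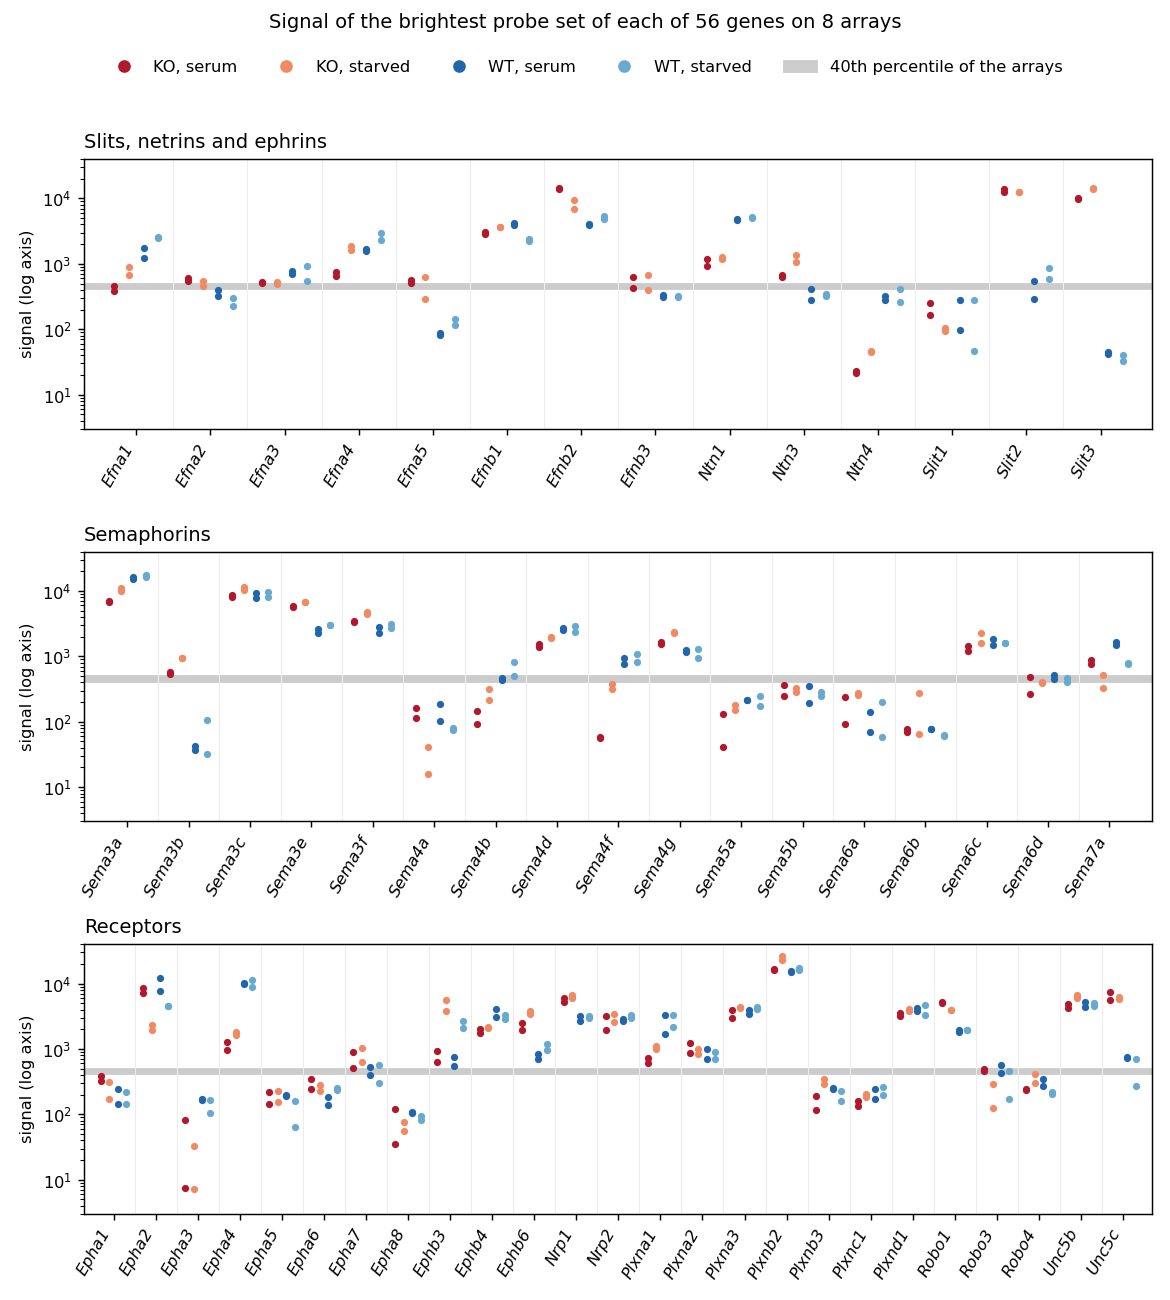
Signal (log axis) on each of the 8 arrays for the brightest probe set of each of 56 genes, with Unc50 left out, in panels of ligands and receptors. Points are arrays and the grey band spans the 40th percentiles of the arrays (412.6 to 497.4). Slit2 and Slit3 stand far higher in KO cells, Epha4 and Ntn1 in WT cells, and 15 genes have no tested probe set.

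Slit3 and Slit2 were far higher in KO cells. Slit3 (1452296_at), a secreted Robo ligand, read 14520 and 13940 in starved KO cells, against 39.67 and 32.52 in starved WT cells. In stimulated cells it read 9937 and 10010 in KO cells, against 42.21 and 44.73 in WT cells. The WT arrays were all below the 40th percentile, and taken against that level Slit3 was at least 30.1-fold higher in starved and at least 20.8-fold higher in stimulated KO cells. On the scale of log2(signal + 16) the differences were 8.10 and 7.39 (SE 0.183). They depend on the constant added, from 8.59 and 7.81 with a constant of 1 to 5.63 and 5.09 with the largest one tried, 16 times that used here.

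Slit2, the other slit above the 40th percentile, followed the same pattern. Probe set 1424659_at read 12600 and 12710 in starved KO cells, against 856.4 and 585 in starved WT cells, and 13800 and 12690 in stimulated KO cells, against 550 and 291.4 in stimulated WT cells. The log2 differences were 4.13 and 4.99 (SE 0.261). The dimmer probe set 1451430_at was at least 3.34-fold higher in starved and at least 2.79-fold higher in stimulated KO cells. Slit1 was below the 40th percentile on all 8 arrays, at 46.46 to 280.

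The 250 bases before the annotated start of Slit3 (chr11:35121206-35121455, plus strand, GRCm38.p6, from RefSeq) are shown because Slit3 is the gene by whose signal the family was chosen and because the window holds a match to the GC-rich motif of the Egr factors, the immediate early family the study looked at. The capitals mark GCGNGGGCG, read on the minus strand, at 17 to 9 bases before the start.

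Slit3: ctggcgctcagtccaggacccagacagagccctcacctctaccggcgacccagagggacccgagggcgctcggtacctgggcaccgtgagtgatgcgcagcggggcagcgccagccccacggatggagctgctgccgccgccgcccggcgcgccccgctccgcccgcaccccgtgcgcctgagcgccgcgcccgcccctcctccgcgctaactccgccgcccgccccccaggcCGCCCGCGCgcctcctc

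The same motif lies at 65 to 57 bases before the Slit2 start. Promoter windows, from 250 bases before to 50 after a start, were matched for 50 of the 57 genes (63 windows), and 14 of the windows (22.2%) held GCGNGGGCG on either strand, against 5.55% of all 32851 windows. The member windows were richer in G and C, at 64%, against 53.8% over all windows, and the part of base composition in the motif count was not tested. Of the 14 genes with the motif, the 2 slits, Efna1, Efna3, Efna5, Plxna2, Plxnb2, Sema4g and Unc5b had a tested probe set. The rest, Epha1, Epha8, Plxnc1, Sema5a and Sema6b, had none. A match is a description of letters and not of binding.

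Of the Robo receptors, Robo1 was about 2-fold higher in KO cells. Robo1 (1427231_at) read 3951 and 3926 in starved KO cells, against 1963 and 1920 in starved WT cells, and 5122 and 5255 in stimulated KO cells, against 1809 and 1932 in stimulated WT cells. The log2 differences were 1.01 and 1.46 (SE 0.12), with no overlap. Robo3 read 126.2 to 500.8 in KO cells and 173 to 571.2 in WT cells, which overlapped.

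The netrins and their receptors went in both directions. Ntn1 (1454974_at), a secreted attractant and repellent, read 1167 and 1282 in starved KO cells, against 5064 and 5183 in starved WT cells, and 1175 and 921.3 in stimulated KO cells, against 4832 and 4670 in stimulated WT cells. The log2 differences were -2.05 and -2.17 (SE 0.149). The second Ntn1 probe set was lower in KO cells as well, at least 1.68-fold in starved and at least 2.81-fold in stimulated cells.

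Ntn3, a netrin expressed in sensory ganglia, was the reverse. It read 1361 and 1070 in starved KO cells, against 320.1 and 346.4 in starved WT cells, which is at least 2.55-fold higher. In stimulated cells it was at least 1.35-fold higher in KO cells.

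Unc5c, a netrin receptor for repulsion, was higher in KO cells by both probe sets. Probe set 1449522_at read 5824 and 6125 in starved KO cells, against 272.2 and 706.4 in starved WT cells, and 5600 and 7427 in stimulated KO cells, against 745 and 726 in stimulated WT cells. The log2 differences were 3.71 and 3.10 (SE 0.336). The starved one lay between 3.05 and 4.38 with either starved WT array left out. Probe set 1419592_at was at least 6.51-fold and at least 6-fold higher, and its 2 WT sets differed by over 1.5-fold in both serum states. Its stimulated log2 difference of 4.19 lay between 3.01 and 5.37 with either stimulated WT array left out. Unc5b, a second receptor of that family, read 4238 to 6787 in KO cells and 4371 to 5302 in WT cells, with no gap of over 2-fold.

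**Figure D2:**
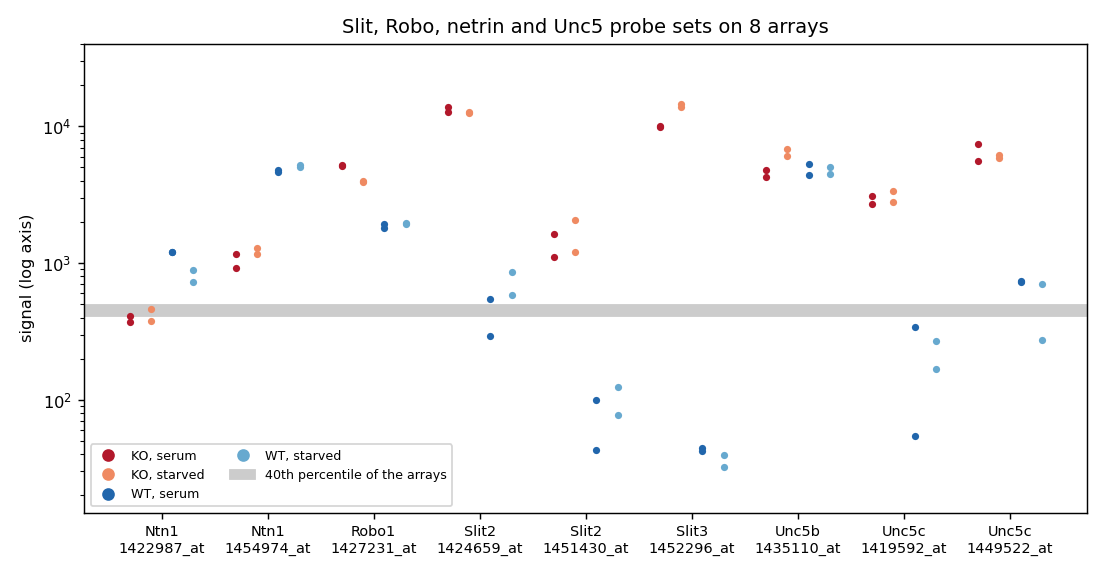
Signal (log axis) of the Slit2, Slit3, Robo1, Ntn1, Unc5b and Unc5c probe sets on each of the 8 arrays. Points are arrays and the grey band spans the 40th percentiles of the arrays. The KO points lie above the WT points for Slit2, Slit3, Robo1 and Unc5c and below them for Ntn1. For Unc5b they overlap over all arrays, though not in starved cells.

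Over the 64 tested probe sets, 20 were over 2-fold higher and 9 over 2-fold lower in starved KO cells with no overlap of arrays. That is 45.3%, where 19.3% of all tested probe sets met the same rule, 8.8% higher and 10.5% lower. In stimulated cells 18 were higher and 11 lower, again 45.3%, where 20.5% of all did, 8.55% higher and 12% lower. The set was chosen with a genotype difference in view, and 10 of its probe sets passed the filter through KO arrays alone and 4 through WT arrays alone, so nothing is read from these shares. The median log2 difference was 0.41 in starved and 0.13 in stimulated cells, against -0.01 and -0.07 over all tested probe sets. By the brightest probe set of each gene it was 0.29 in starved and -0.04 in stimulated cells, the latter near that of all. In both states 23 probe sets met the rule, 15 higher and 8 lower in KO cells, which is 35.9%, where 14.5% of all tested probe sets did, 6.33% higher and 8.1% lower, and nothing is read from this either.

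Among the semaphorins, Sema3b and Sema3e were higher in KO cells and Sema4f and Sema4b lower. Sema3b (1448415_a_at), a secreted semaphorin, read 939.7 and 946.4 in starved KO cells, against 105.5 and 32.09 in starved WT cells, which is at least 1.99-fold. In stimulated cells it was at least 1.15-fold higher in KO cells. The fitted log2 differences were 3.65 and 3.36, and the first lay between 2.98 and 4.32 with either starved WT array left out. The second Sema3b probe set was at least 1.21-fold higher in starved KO cells and below the 40th percentile in both stimulated groups.

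Sema3e, the secreted ligand of plexin D1, was higher in KO cells by all 3 of its probe sets, by 1.18 to 1.84 in starved and 1.15 to 2.07 in stimulated cells on the log2 scale. Its probe set 1419717_at read 6875 and 6767 in starved KO cells, against 3006 and 2982 in starved WT cells, and 5840 and 5636 in stimulated KO cells, against 2313 and 2580 in stimulated WT cells. Sema3f (1420508_at) and Sema4g were over 2-fold higher in starved KO cells, by 1.33 and 1.04 on the log2 scale, and in stimulated cells their differences were 0.59 and 0.41. The other, brighter Sema3f probe set (1425840_a_at) differed by 0.65 and 0.43.

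Sema4f, a transmembrane semaphorin, read 315.6 and 384.6 in starved KO cells, against 1089 and 830 in starved WT cells, and 59.23 and 56.7 in stimulated KO cells, against 945 and 754.8 in stimulated WT cells. All KO arrays were below the 40th percentile, so it was at least 1.98-fold lower in starved and at least 1.96-fold lower in stimulated KO cells. Sema4b (1455678_at) was at least 1.34-fold lower in starved KO cells and below the 40th percentile in both stimulated groups. Sema3a (1420416_at), the collapsin that signals through neuropilin 1, read 7141 and 6726 in stimulated KO cells, against 16310 and 15290 in stimulated WT cells, a log2 difference of -1.19 (SE 0.107), and in starved cells the difference was -0.66. Sema3c (8016 to 11400 in KO cells and 7696 to 9478 in WT cells) and Sema4d (1420824_at) did not differ by over 2-fold in either state.

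Of the semaphorin receptors, Nrp1 was higher and Plxna1 lower in KO cells. Nrp1, the neuropilin that binds Sema3a, was higher in starved KO cells by all 3 probe sets, by 1.01 to 1.12 on the log2 scale, and in stimulated cells the differences were 0.93 to 1.35. Its probe set 1448943_at read 6005 and 6658 in starved KO cells, against 3146 and 2989 in starved WT cells. Nrp2, the neuropilin that binds Sema3f, read 1935 to 3418 in KO cells and 2651 to 3250 in WT cells, which overlapped. Plxna1 was lower in KO cells, with log2 differences of -1.33 and -1.80 (SE 0.3), and read 602.5 to 1120 in KO cells against 1684 to 3286 in WT cells. The second WT arrays were over 1.5-fold higher than the first for Plxna1 in both serum states. Plxna2, Plxna3, Plxnb2 and Plxnd1 did not differ by over 2-fold in either state.

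Among the Eph receptors, Epha4 was lower in KO cells by both probe sets. Epha4, which binds ephrins of both classes, read 1831 and 1658 by 1421928_at in starved KO cells, against 8990 and 11220 in starved WT cells, and 1293 and 970.3 in stimulated KO cells, against 9708 and 10200 in stimulated WT cells. The log2 differences were -2.52 and -3.13 (SE 0.165). By 1421929_at the starved difference was -3.03, and Epha4 was at least 10.9-fold lower in stimulated KO cells. Epha2 read 1929 and 2299 in starved KO cells, against 4518 and 4603 in starved WT cells, a log2 difference of -1.11. In stimulated cells its difference was -0.33, and the arrays overlapped.

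Ephb6, an Eph receptor without kinase activity, was higher in KO cells, with 3424 and 3778 in starved KO cells, against 1188 and 952.7 in starved WT cells, and log2 differences of 1.74 and 1.51 (SE 0.178). Epha7 (1451991_at) was at least 1.52-fold and at least 1.04-fold higher in KO cells, and its stimulated log2 difference of 2.26 lay between 1.5 and 3.01 with either stimulated WT array left out. The second tested Epha7 probe set (1427528_a_at) read 1029 and 626.1 in starved KO cells, against 297.9 and 560.5 in starved WT cells, a log2 difference of 0.95 without overlap. In stimulated cells its arrays overlapped, with 905.2 and 514.6 in KO cells and 392.5 and 537 in WT cells. Ephb4, the receptor of ephrin-B2 in vessels, did not differ by over 2-fold in either state.

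Of the ephrins-A, which are anchored in the membrane by a lipid, Efna1 was lower in KO cells by both probe sets. Efna1 (1416895_at) read 906.3 and 662.8 in starved KO cells, against 2443 and 2594 in starved WT cells, and 387.6 and 463.1 in stimulated KO cells, against 1210 and 1727 in stimulated WT cells. The log2 differences were -1.68 and -1.73 (SE 0.225). By 1448510_at the starved difference was -1.75, and it was at least 3.39-fold lower in stimulated KO cells. Efna5 (1421796_a_at) was higher in KO cells, at least 1.13-fold in stimulated cells. In starved cells it read 621.4 and 293.6 in KO cells, against 142.4 and 117.7 in WT cells, of which the first KO array alone was above the 40th percentile. Efna4 differed by -0.61 in starved and by -1.18 in stimulated cells. Efna2 was higher in KO cells without overlap but under 2-fold by the fitted values, with log2 differences of 0.89 and 0.64 and a bound of at least 1.19-fold in stimulated cells. Efna3 did not differ by over 2-fold. Of the ephrins-B, Efnb2 was higher in stimulated KO cells, by 2.51, 1.80 and 1.55 (1419638_at, 1419639_at and 1449548_at). By 1449549_at its stimulated difference was 0.88. In starved cells the Efnb2 differences were 0.31 to 0.65. Efnb1 and Efnb3 did not differ by over 2-fold in either state.

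**Figure D3:**
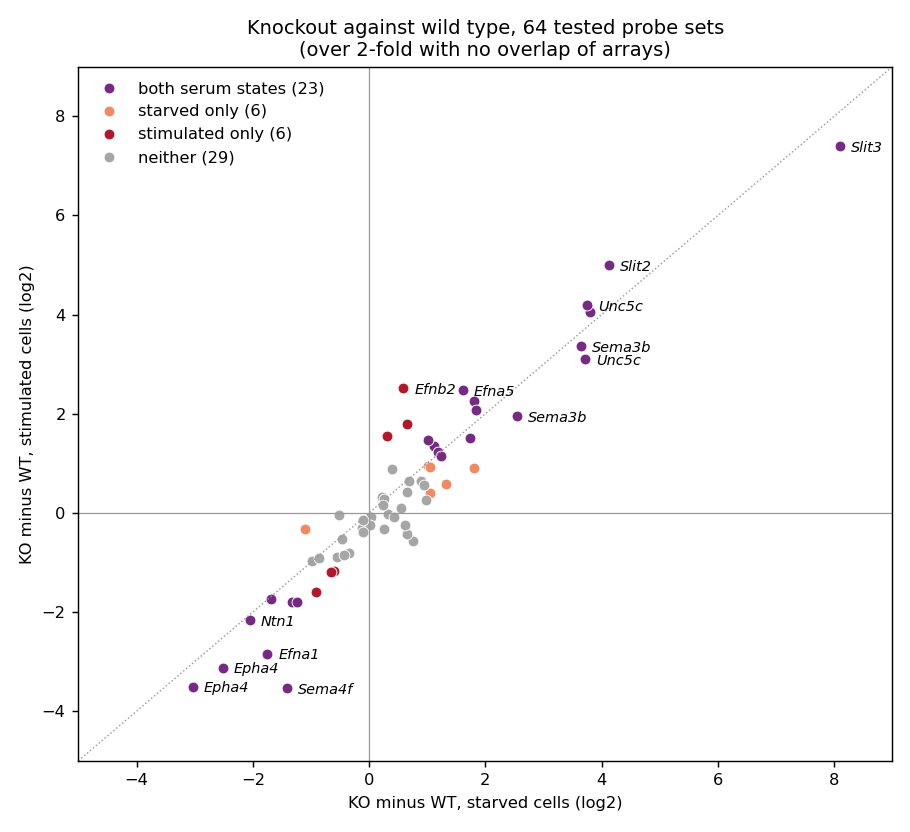
Log2 difference KO minus WT in stimulated cells (vertical axis) against that in starved cells (horizontal axis) for the 64 tested probe sets, on the scale of log2(signal + 16). Colours mark probe sets over 2-fold apart without overlap of arrays in both states (23), starved alone (6), stimulated alone (6) or neither (29), and the dotted line marks equal differences. Slit3 lies at 8.10 and 7.39, and the 3 Efnb2 probe sets are among the 6 apart in stimulated cells alone.

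Serum was tested within each genotype, a contrast that the choice by Slit3 did not use. In KO cells 6 of the 64 tested probe sets rose after 30 min of serum and 16 fell, and 42 did not pass the test (limma, Benjamini-Hochberg adjusted p under 0.05 over 14947 probe sets). That is 34.4%, where 23.1% of all tested probe sets were called, 9.33% up and 13.8% down. Without Unc50, 6 of 61 rose and 15 fell. Taking the brightest probe set of each gene, 4 of 42 genes rose and 10 fell. By any probe set, the rises were in Epha2, Efnb2, Sema7a and Robo1. The falls were in Ephb3, Sema4f, Efna1, Efna4, Ntn3, Epha4, Efnb1, Ephb6, Sema3a, Plxnb2 and Unc5b, beside 1 probe set of Unc50, and of these Efnb1 and Unc50 were not called by their brightest probe set.

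The number of falls depends on the scaling of the arrays. The stimulated KO arrays had a median signal of 765.6 and 805.2, against 863.8 and 891.1 for the starved KO arrays, and the median log2 change over all tested probe sets was -0.13, beside -0.29 for the members. With each array centred on its median, 6 members rose and 8 fell, which is 21.9%, where 19.7% of all tested probe sets were called, so the share of members was then near that of the array. With quantile normalization 6 rose and 12 fell, which is 28.1%, where 20.2% of all were called. The median of all probe sets was 0.03 with centring and -0.06 with quantile normalization. Without the first or without the second stimulated KO array, 4 rose and 8 fell, where 10.6% and 11.9% of all tested probe sets were then called.

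Epha2 rose most. This Eph receptor, a known target of Ras and MAP kinase signalling, read 7148 and 8436 in stimulated KO cells, against 1929 and 2299 in starved KO cells. The log2 change was 1.87 ± 0.20 (SE, n = 2 arrays a group, limma adjusted p = 0.000167), or 3.67-fold, and it held under all 17 alternatives. Its window (chr4:141300971-141301220, plus strand, GRCm38.p6, from RefSeq) is shown because it is the 1 member window with TGACGTCA, the cyclic AMP response element bound by CREB, marked in capitals at 33 to 26 bases before the start. Over all windows 1.79% held that motif, and 1.59% of the member windows did.

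Epha2: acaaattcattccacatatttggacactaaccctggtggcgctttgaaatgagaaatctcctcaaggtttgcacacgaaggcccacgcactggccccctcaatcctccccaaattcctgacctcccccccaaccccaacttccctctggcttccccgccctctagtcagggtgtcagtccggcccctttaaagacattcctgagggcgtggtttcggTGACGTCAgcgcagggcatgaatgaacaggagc

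Robo1 read 5122 and 5255 in stimulated KO cells, against 3951 and 3926 in starved KO cells, a log2 change of 0.40 ± 0.12 (SE, limma adjusted p = 0.0389). The call was lost without either starved KO, either stimulated KO or either starved WT array, at adjusted p of up to 0.163. Its window (chr16:72662899-72663148, plus strand, GRCm38.p6, from RefSeq), at an annotated start inside the gene, is shown because it holds a CArG box, the motif of serum response factor (2 C, 6 A or T, 2 G, read on both strands), in capitals at 60 to 51 bases before the start. The other member with one is Sema4d, and the shares are 3.17% of member windows and 1.63% of all windows.

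Robo1: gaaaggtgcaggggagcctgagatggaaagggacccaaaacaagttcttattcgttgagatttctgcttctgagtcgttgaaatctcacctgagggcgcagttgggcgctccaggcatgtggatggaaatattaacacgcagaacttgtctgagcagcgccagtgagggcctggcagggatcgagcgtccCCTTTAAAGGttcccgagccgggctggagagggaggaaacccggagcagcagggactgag

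Neither AP-1 sites (TGANTCA, both strands) nor CArG boxes were in the windows of Efnb2, Sema7a or Epha2. AP-1 sites were in those of Sema4d and Sema6b, 3.17% of member windows against 7.81% of all.

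Efnb2, a transmembrane ephrin that signals in both directions and marks arterial endothelium, rose in KO cells by 3 of its 4 probe sets. By 1419638_at it read 18830 and 17630 in stimulated KO cells, against 7807 and 7051 in starved KO cells. The log2 changes were 1.34 ± 0.191, 1.29 ± 0.152 and 0.81 ± 0.149 (SE, limma adjusted p = 0.00103, 0.000307 and 0.00428 for 1449548_at, 1419638_at and 1419639_at), and each held under all 18 alternatives. The fourth, 1449549_at, had a change of 0.36 (limma adjusted p = 0.239).

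Sema7a, the semaphorin with a lipid anchor that also acts on integrins, read 769.6 and 878.8 in stimulated KO cells, against 332.2 and 520.7 in starved KO cells. The log2 change was 0.96 ± 0.231 (limma adjusted p = 0.0154). The call was lost without the first starved KO array or either stimulated KO array, at adjusted p of up to 0.0912.

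Ephb3 fell most. This receptor of the ephrins-B read 921.4 and 629.9 in stimulated KO cells, against 5677 and 3782 in starved KO cells. The log2 change was -2.58 ± 0.257 (limma adjusted p = 0.000107), 5.98-fold lower, and it held under all 18 alternatives. Sema4f had a change of -2.30 ± 0.289 (limma adjusted p = 0.00049), but all 4 KO arrays were below the 40th percentile, and the change lay between -2.57 and -0.95 over the alternatives.

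Of the 6 ephrin-A probe sets 3 fell, those of Efna4 and Efna1. Efna4 read 755.2 and 661.5 in stimulated KO cells, against 1844 and 1603 in starved KO cells, a change of -1.26 ± 0.174 (limma adjusted p = 0.000859), which held under all 17 alternatives. Efna1 fell by 1.71 and 0.85 on the log2 scale (limma adjusted p = 0.00309 and 0.0232). Efna2, Efna3 and Efna5 had changes of 0.19, 0.01 and 0.33 and did not pass. The second Efna1 call was lost under both other scalings and without the first starved KO or either stimulated KO array, at adjusted p of up to 0.135.

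The other falls were smaller. Sema3a (1420416_at) read 7141 and 6726 in stimulated KO cells, against 10090 and 11200 in starved KO cells, a change of -0.62 (limma adjusted p = 0.00311). Plxnb2, the receptor of class 4 semaphorins, read 16110 and 16810 in stimulated KO cells, against 23050 and 26520 in starved KO cells, a change of -0.59 (limma adjusted p = 0.00328). Both of these held under all 18 alternatives, as did the fall of Efna1 by 1448510_at, at -2.16 to -1.02.

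The rest fell by 0.43 to 0.88 on the log2 scale, and each of these calls was lost under some alternative. Ntn3 (-0.88, limma adjusted p = 0.0346) lost its call without any single KO array and under both other scalings. Epha4 (-0.77 and -0.63, limma adjusted p = 0.0284 and 0.0217) lost both calls under both other scalings and without the second stimulated KO array, and 1 of them without the first stimulated or either starved KO array. Efnb1 (1418285_at, -0.75, limma adjusted p = 0.0086) lost its call without the first stimulated KO array. Its second call (1451591_a_at, -0.51, limma adjusted p = 0.0408) was lost under both other scalings and without any KO or any stimulated WT array. Ephb6 (-0.71, limma adjusted p = 0.0183) lost its call without the second starved or the first stimulated KO array. Unc5b (-0.51, limma adjusted p = 0.0271) lost its call with median centring and without the second starved or either stimulated KO array. The second Sema3a call (1449865_at, -0.43, limma adjusted p = 0.0399) was lost with median centring and without either starved WT, the second starved KO, the second stimulated WT or either stimulated KO array. Unc50 (1435812_at, -0.72, limma adjusted p = 0.0151) lost its call with median centring and without the first starved or the second stimulated KO array. The highest adjusted p among these was 0.205.

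Slit3 and Slit2 did not pass in KO cells. Slit3 had a log2 change of -0.51 ± 0.183 (limma adjusted p = 0.0697), and Slit2 changes of 0.06 and -0.24 (limma adjusted p = 0.888 and 0.73). Unc5c had changes of -0.10 and 0.11, Ntn1 of -0.23 and -0.09, and the 3 Nrp1 probe sets of -0.16 to 0.01.

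In WT cells 3 of the 64 probe sets rose after serum and 1 fell, which is 6.25%, where 4.14% of all tested probe sets were called, 2.44% up and 1.7% down. Epha2 read 12320 and 7709 in stimulated WT cells, against 4518 and 4603 in starved WT cells, a log2 change of 1.09 ± 0.20 (limma adjusted p = 0.0121). The call was lost without either starved or the first stimulated WT array, at adjusted p of up to 0.0786. Sema7a read 1652 and 1495 in stimulated WT cells, against 800.2 and 752.7 in starved WT cells, a change of 1.00 ± 0.231 (limma adjusted p = 0.0392). This call was lost without any single WT array or either stimulated KO array, at adjusted p of up to 0.207. Ephb3 read 741.1 and 546.3 in stimulated WT cells, against 2657 and 2072 in starved WT cells, a change of -1.86 ± 0.257 (limma adjusted p = 0.00241). Efnb1 (1418286_a_at), a transmembrane ephrin needed for normal craniofacial development, read 3876 and 4217 in stimulated WT cells, against 2371 and 2201 in starved WT cells, a change of 0.82 ± 0.123 (limma adjusted p = 0.0039). The Ephb3 and Efnb1 calls held under all alternatives. The other Efnb1 probe sets, 1418285_at and 1451591_a_at, had WT changes of 0.58 and 0.35 and did not pass (limma adjusted p = 0.0799 and 0.281). Epha2 and Sema7a rose and Ephb3 fell in both genotypes, and the difference between the genotypes did not pass the test for any of these (limma adjusted p = 0.176, 0.957 and 0.315).

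**Figure D4:**
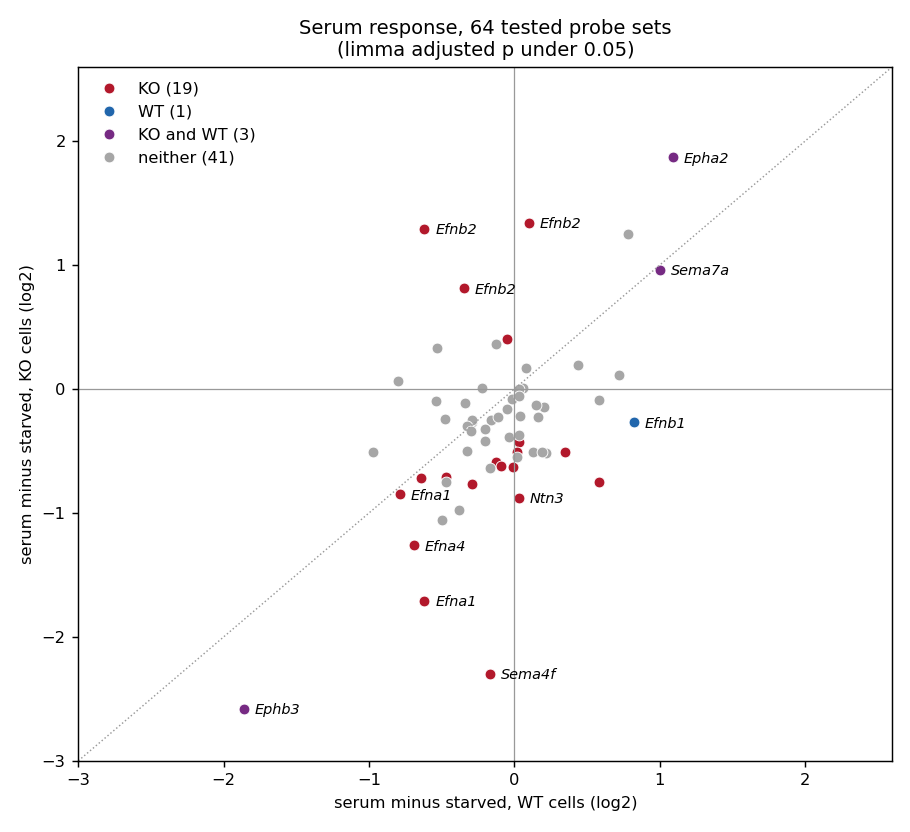
Log2 change after 30 min of serum in KO cells (vertical axis) against that in WT cells (horizontal axis) for the 64 tested probe sets, on the scale of log2(signal + 16). Colours mark the limma calls in KO cells alone (19), WT cells alone (1), both (3) or neither (41), and the dotted line marks equal changes. Epha2 and Sema7a are up and Ephb3 is down on both axes, and Efnb2 is up on the KO axis alone.

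Most probe sets called for a difference in serum response were of 2 ephrin-B genes. Testing KO response minus WT response, 3 of the 64 probe sets were higher and 3 lower, which is 9.38%, where 2.69% of all tested probe sets were called, 1.61% higher and 1.08% lower. Efnb2 and Efnb1 made up 5 of the 6, and these are overlapping measurements of 2 genes. With each gene taken by its brightest probe set, 1 of 42 genes was higher and 2 lower, which is 7.14%. By 1419638_at, Efnb2 read 3006 and 3396 in stimulated WT cells, against 4214 and 5754 in starved WT cells, a change of -0.62 (limma adjusted p = 0.0519), beside its rise in KO cells. The responses differed by 1.92 ± 0.216 on the log2 scale (limma adjusted p = 0.00235), and this held under all 18 alternatives. By 1419639_at and 1449548_at they differed by 1.15 and 1.25 (limma adjusted p = 0.0214 and 0.0422), and by 1449549_at by 0.49 (limma adjusted p = 0.404). The WT changes by these probe sets, in that order, were -0.35, 0.1 and -0.13 (limma adjusted p = 0.253, 0.853 and 0.813).

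Efnb1 went the other way. By 1418285_at it read 923.8 and 1005 in stimulated KO cells, against 1569 and 1684 in starved KO cells, and 1420 and 1463 in stimulated WT cells, against 1025 and 902.1 in starved WT cells. No arrays overlapped within either genotype, and the responses differed by -1.32 ± 0.225 (limma adjusted p = 0.0158). By 1418286_a_at they differed by -1.09 ± 0.175 (limma adjusted p = 0.0121), and by 1451591_a_at by -0.86 (limma adjusted p = 0.0746). Efnb3 had log2 changes of 0.00 in KO cells and 0.03 in WT cells.

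The remaining call was Sema4f, at -2.13 ± 0.409 (limma adjusted p = 0.0258). It was tested through its WT arrays alone, and its KO response is a difference between values all below the 40th percentile, so the size of that difference is uncertain. Apart from Efnb2 by 1419638_at, each of these calls was lost without 1 or more arrays. Efnb2 by 1449548_at lost it without any array but the second starved KO array. Efnb2 by 1419639_at lost it without the second starved WT or any stimulated array. Sema4f lost it without any array but the first starved KO array. Efnb1 by 1418285_at lost it without the second starved WT, the second stimulated WT or the first stimulated KO array, and by 1418286_a_at without the last 2 of these. The adjusted p reached at most 0.128. With 1 array left out, 1 to 5 members were called, 1 of them without the second stimulated WT or the first stimulated KO array, 2 without the second starved WT array and 3 without the second stimulated KO array.

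**Figure D5:**
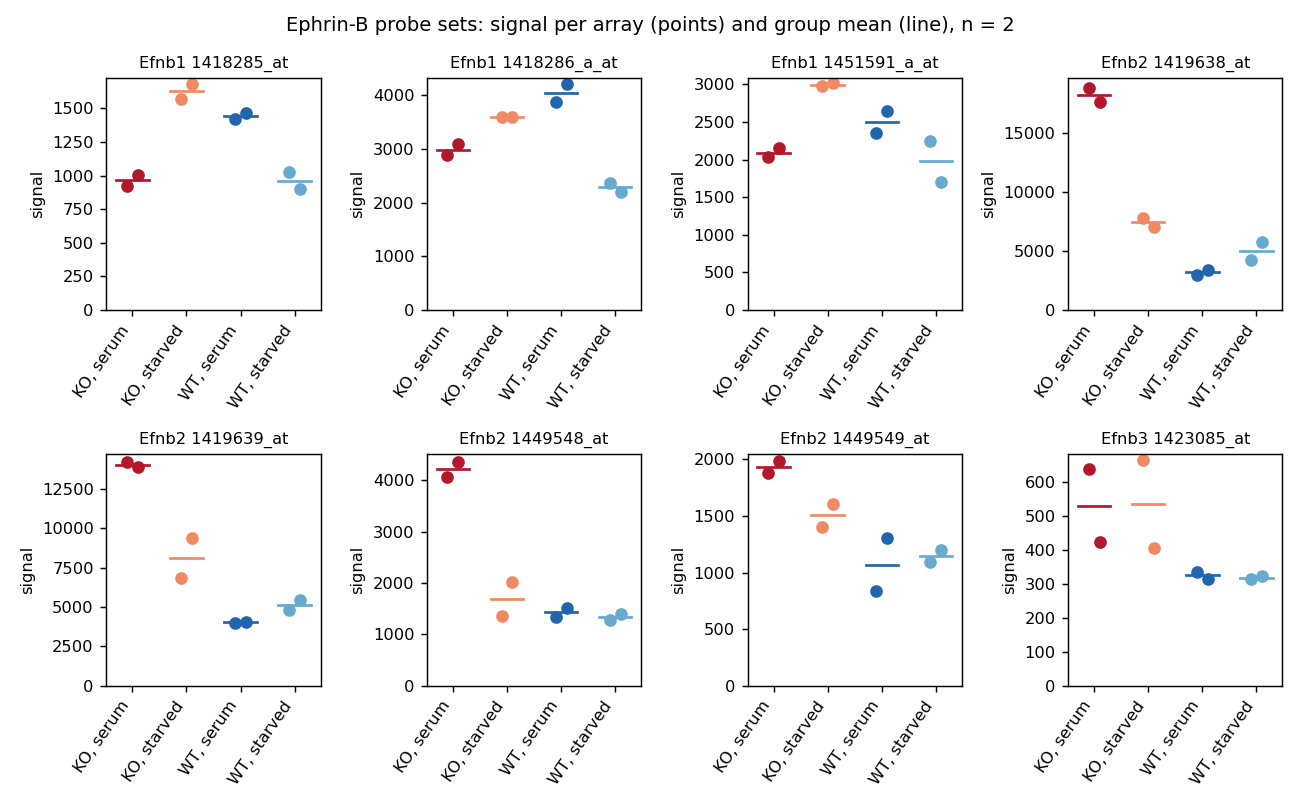
Signal (linear axes from 0) of the 8 ephrin-B probe sets on each of the 8 arrays, with points for arrays and a line for the group mean (n = 2). Efnb2 is highest in stimulated KO cells in all 4 of its panels, while Efnb1 is lower in stimulated than in starved KO cells and higher in stimulated than in starved WT cells.

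Of the other genes of guidance signalling, listed with earlier results of these data known, 55 of 64 were on the array and 47 were tested, each by its brightest probe set. In KO cells 4 rose after serum and 5 fell, 19.1% of the 47, where 23.1% of all tested probe sets were called, so the list was not called more often than the array as a whole. The rises were Vasp (0.54) and Cfl1 (0.42), which act on actin filaments, and the kinases Rock1 (0.53) and Pak2 (0.41). The falls were Dcc (-0.81), a netrin receptor that was below the 40th percentile in stimulated KO cells, the adaptor Nck1 (-0.79), the kinase Limk2 (-0.47), the small GTPase Rnd3 (-0.35) and Dag1 (-0.33), which binds slits. Their limma adjusted p ran between 0.00534 for Vasp and 0.0466 for Pak2. The median change over all tested probe sets was -0.13, and how far these calls depend on the scaling is not given here. In WT cells and for the difference in response limma called none of the 47, with 5 and 8 at an unadjusted p under 0.05.

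By genotype, 4 of the 47 were over 2-fold higher and 4 lower in starved KO cells without overlap, which is 17%, where 19.3% of all tested probe sets met the rule. In stimulated cells 4 were higher and 5 lower, 19.1%, where 20.5% of all did. Cap1, a regulator of actin turnover, was lower in KO cells, with log2 differences of -3.45 and -3.29, as was Mical2, an oxidase of actin filaments, with -2.75 and -2.63. Crmp1 and Dpysl3, of the family that mediates semaphorin signals, were lower as well, Dpysl3 with -1.38 and -1.67. Crmp1 was below the 40th percentile on all KO arrays, so it was at least 2.78-fold and at least 2.57-fold lower. Tiam1 was over 2-fold lower in stimulated cells alone (-1.06). Neo1, the netrin receptor neogenin, was higher by 1.57 and 1.21, and Rnd3 by 1.68 and 1.29. Vav3, below the 40th percentile on all WT arrays, was at least 1.29-fold and at least 1.09-fold higher. Met was over 2-fold higher in starved cells alone (1.11), and Farp2 in stimulated cells alone (1.26).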

How the data were processed

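The authors deposited 1 intensity per probe set and array, and the submitters' processing notes name MAS5 without a version. The values are positive, on a linear scale, and the mean after trimming 2% at each end was 2500.6 to 2500.8 on every array. MAS5 corrects for mismatch signal, so low values are noisy. Per the labels' protocols, total RNA was taken with Trizol and RNeasy columns for biotin labelling. With 2 arrays a group, the number of arrays limits the precision, and the smallest p of an exact permutation test, two-sided, is 0.333.

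After leaving out 64 control probe sets, the 14947 that reached the 40th percentile of at least 2 arrays were fitted as log2(signal + 16) with limma 3.58.1 in R 4.3.3. The fit used the means of the 4 groups and a mean-variance trend in eBayes (4 residual and 6.07 prior degrees of freedom), with two-sided p-values adjusted by Benjamini-Hochberg over all 14947 within a comparison. Serum in KO cells, serum in WT cells and the difference between them were tested. KO against WT was described only, by differences with their SE from that fit and by counts over 2-fold without overlap. An "at least" fold sets the mean of the bright group against the 40th percentile of the dim group's arrays. Fold changes on this scale understate changes of dim genes.

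Of the 22626 probe sets, 20380 named a single gene, 691 several and 1555 none, per the platform annotation. Genes were named by a rule: Slit3, Med23, called members (up to 15 in each direction), up to 12 a direction by genotype difference, the brightest gene of each family, other probe sets of these genes, and called genes of the signalling list. The members, the lists and this rule were chosen with earlier results of these data known, and Sema4d, Sema6c, Epha3 and Ntn4 are named in addition. On simulated data of 14947 probe sets, the test for serum in KO cells called 79.8% of the 2-fold changes and 97.6% of the 4-fold changes. Of its calls 5.53% were false. The simulated noise was normal and independent, with the spread of the fit, few probe sets were changed and no array was shifted. The measured arrays differ from that, with 23.1% of probe sets called, so these shares need not hold for them. Figures were drawn with matplotlib 3.10.9.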

Additional observations from a re-analysis of the deposited data

Results flagged for a closer look

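The response to serum differed between the genotypes by limma's test of the difference for 6 probe sets. KO response minus WT response, on the log2 scale, was 1.92, 1.25 and 1.15 for Efnb2 (1419638_at, 1449548_at and 1419639_at). It was -1.32 and -1.09 for Efnb1 (1418285_at and 1418286_a_at). For Sema4f (1419328_at) it was -2.13, with every KO array below the 40th percentile, so that its size is uncertain. For Efnb2 by 1419638_at, stimulated exceeded starved signal in KO cells (18830 and 17630 against 7807 and 7051), and was below it in WT cells (3006 and 3396 against 4214 and 5754). The WT changes by 1419639_at, 1449548_at and 1449549_at were -0.35, 0.1 and -0.13, and limma called no WT change of Efnb2.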

How the results depend on the processing

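The alternatives were added constants of 1, 64 and 16 times 16, quantile normalization, median centring, no filter, a 60th percentile filter, no mean-variance trend, the set number as a block, leaving out probe sets with a letter suffix, and leaving out each array. None of the values of called or named probe sets computed under them changed direction. With each array centred on its median, 14 members were called for serum in KO cells in place of 22. Leaving out 1 array gave 12 to 22 calls for serum in KO cells, 3 to 4 in WT cells and 1 to 5 for the difference in response, which fell to 2 without the second starved WT array, to 1 without the second stimulated WT array, to 1 without the first and to 3 without the second stimulated KO array. The genotype counts were then 28 to 33 in starved and 29 to 32 in stimulated cells. Of the values of single probe sets under alternatives, 327 kept and 63 lost the call for serum in KO cells, 58 and 11 in WT cells, and 77 and 29 for the difference. Of the genotype differences of named probe sets, 309 in starved and 314 in stimulated cells moved by less than the spread between arrays, and 15 and 42 by more. Set numbers 1 and 2 occur in each group, and no label says that equal numbers pair. Deviations of equal number correlated at 0.214 between the WT groups and at 0.097 between the KO groups. Between groups of different genotype they correlated at -0.0343 to 0.00558. With the number as a replicate block shared by both genotypes, 25 members were called for serum in KO cells, 5 in WT cells and 6 for the difference. A pairing within each genotype was not fitted. Dim probe sets limit the text: 34 of 98 were not tested.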
